A study of Oryza sativa with 6 samples.

Results

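A stretch of chromosome 3 of rice (Oryza sativa) was described locus by locus in young panicles of a pair of near-isogenic lines, NIL-qigl1HD385 and its counterpart NIL-qIGL1NIP. It was defined as all rows of the deposited expression table from identifier LOC_Os03g38970 to LOC_Os03g40270, leaving out LOC_Os03g39610, with no filter on expression. This gave 94 loci of the 46732 in the table. The range was chosen because loci that differ between these lines lay close together in it. The differences between the lines inside it are therefore given as a description. The calls of its loci, and whether alternative fits keep them, are likewise description and no support. By their names the lines carry the HD385 and the NIP version of a locus named qIGL1. Both are labelled wild type, and panicles of 8 to 10 cm were taken from both. Each line had 3 RNA-seq libraries, and whether these come from separate plants is not stated, so the spread between them may be technical. The labels do not say which chromosome segments either line carries.

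Near-isogenic lines are bred by repeated backcrossing so that they share most of the genome and keep a chosen stretch from one parent. Genes that lie on a retained stretch come as the donor's alleles, and neighbours on a chromosome are inherited together. Between rice varieties, alleles can differ in promoter and coding sequence, and genes can be present in one variety and missing in another. Rice locus identifiers name the chromosome and number the loci in their order along it. None of the 94 identifiers is paired with a gene name in the deposited table, and 0 of them matched the RefSeq gene table used here. Loci are therefore given by identifier, with no gene function, sequence or base position, and the panicle tissue was not checked against marker genes.

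Levels are in RPKM, reads scaled to the length of the gene model and to the library total, as deposited. Library totals recovered from these values were 44989202 to 48329989 reads in NIL-qigl1HD385 and 43536754 to 52466060 reads in NIL-qIGL1NIP. NIL-qigl1HD385 replicate 2 and NIL-qIGL1NIP replicate 3 stood apart from the other libraries of their lines in a principal component analysis over all tested loci. A locus was tested where its mean over the 6 libraries was at least 0.5 RPKM, and called where limma gave a Benjamini-Hochberg adjusted p under 0.05 over all 23181 tested loci. A change is NIL-qigl1HD385 minus NIL-qIGL1NIP on the log2(RPKM + 0.5) scale, so that changes of low loci come out too small. In bulk tissue, fewer expressing cells and less RNA per cell cannot be told apart. Levels rest on counted reads, and whether alleles that differ from the gene models were counted equally well was not tested.

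The segment held 49 tested loci, and 9 of these were called, 7 lower and 2 higher in NIL-qigl1HD385. Of all 23181 tested loci, 0.733% were called, 0.358% as lower and 0.375% as higher in NIL-qigl1HD385. The segment was picked for these calls, so the excess is not a result. The 7 lower loci were LOC_Os03g39370, LOC_Os03g39860, LOC_Os03g39870, LOC_Os03g39880, LOC_Os03g39920, LOC_Os03g39930 and LOC_Os03g39960. The 2 higher loci were the neighbours LOC_Os03g40194 and LOC_Os03g40210 near the far end. Thus 6 of the 7 lower calls lay in 10 consecutive rows of the table, from LOC_Os03g39860 to LOC_Os03g39960, here termed the block. The block was marked off after its values had been seen. Without NIL-qigl1HD385 replicate 3, 5 of the 9 calls were left, all of them lower loci of the block. Leaving out any 1 of the other libraries kept 6 to 8. Without both libraries that stood apart, an alternative added after the data had been seen, 7 loci were called, 4 lower and 3 higher. The 4 lower ones were LOC_Os03g39860, LOC_Os03g39880, LOC_Os03g39930 and LOC_Os03g39960, all among the 9, and the 3 higher ones were LOC_Os03g39230, LOC_Os03g39910 and LOC_Os03g39940, none among the 9.

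**Figure D1:**
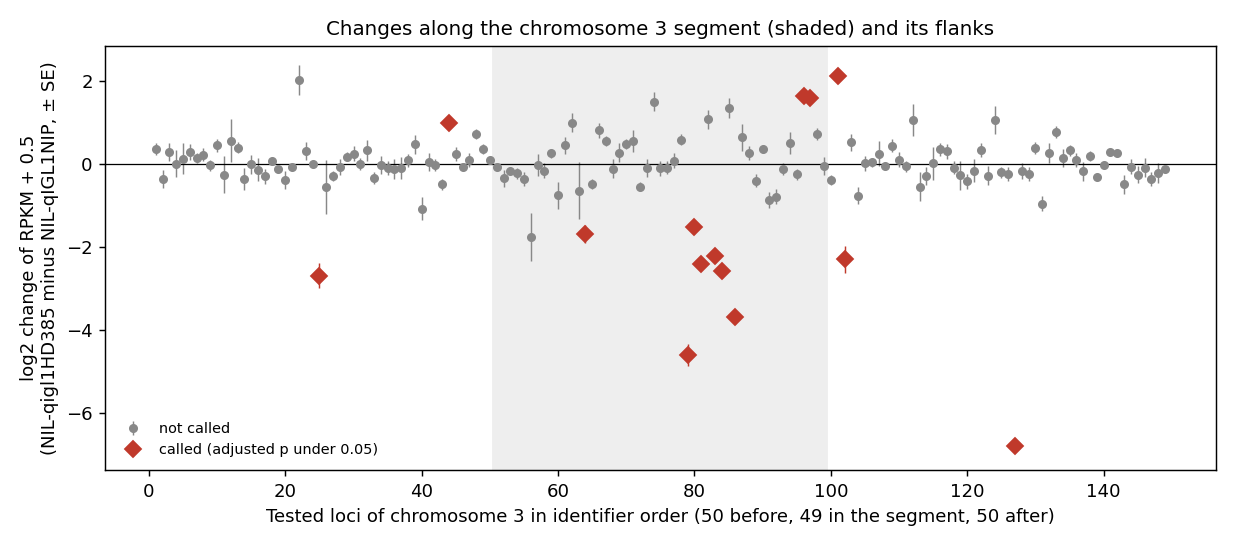
Each point is a tested locus of chromosome 3 in identifier order, with its log2 change of RPKM + 0.5 (NIL-qigl1HD385 minus NIL-qIGL1NIP) and its standard error on the y axis, and red diamonds mark called loci. The segment (49 loci) is shaded between 50 tested loci before it and 50 after it, and 6 lower calls stand together right of the middle of the shaded stretch.

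All 10 loci of the block had 3 values in one line beyond all 3 of the other, 8 lower and 2 higher in NIL-qigl1HD385. Of all tested loci, 10.3% had values without overlap in the lower direction and 16.2% in the higher direction. The 8 lower loci of the block summed to 1.55, 1.18 and 1.44 RPKM in NIL-qigl1HD385 and to 44.7, 47.7 and 68.0 RPKM in NIL-qIGL1NIP. NIL-qigl1HD385 thus had 2.60% of the NIL-qIGL1NIP mean. These sums cover loci picked for their low values.

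The first locus of the block, LOC_Os03g39860, had the largest change of the segment on the log2(RPKM + 0.5) scale, though LOC_Os03g39920 and LOC_Os03g39930 were lower in proportion and had larger changes with limma voom on recovered reads. It had 1.12, 0.683 and 0.850 RPKM in NIL-qigl1HD385, against 24.5, 29.4 and 49.2 RPKM in NIL-qIGL1NIP. NIL-qIGL1NIP replicate 3 was the highest library, and the lowest NIL-qIGL1NIP value was still far above the highest NIL-qigl1HD385 value. The change was -4.60 (SE 0.27), and the NIL-qigl1HD385 mean was 2.57% of the NIL-qIGL1NIP mean. Its call was kept in all 15 alternative fits.

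LOC_Os03g39870 had 0.101, 0.0802 and 0.0862 RPKM in NIL-qigl1HD385, against 1.21, 1.21 and 1.14 RPKM in NIL-qIGL1NIP. LOC_Os03g39880, the next row, had 0.127, 0.101 and 0.109 RPKM in NIL-qigl1HD385, against 3.11, 2.64 and 2.501 RPKM in NIL-qIGL1NIP. At both loci the 3 libraries of a line lay close together and the lines did not overlap. The changes were -1.52 (SE 0.15) and -2.40 (SE 0.15). The recovered reads of these neighbours were the same in NIL-qigl1HD385, 11, 9 and 9 at each, whereas NIL-qIGL1NIP had 148, 133 and 115 reads at LOC_Os03g39870 and 300, 229 and 200 at LOC_Os03g39880. LOC_Os03g39870 kept its call in 1 of the 6 fits that leave out a library, the one without NIL-qigl1HD385 replicate 2, and LOC_Os03g39880 kept it in all 6.

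LOC_Os03g39890 and LOC_Os03g39900 lay under the filter and so had no test. LOC_Os03g39890 had 0, 0.0185 and 0 RPKM in NIL-qigl1HD385, against 0.717, 0.531 and 0.309 RPKM in NIL-qIGL1NIP. The NIL-qigl1HD385 value came from 1 read against 85 in NIL-qIGL1NIP, or 1.20% of the depth-scaled reads with an exact 95% interval of 0.0301 to 6.88% that covers counting error only. LOC_Os03g39900 had 0.0315, 0.0102 and 0.0220 RPKM in NIL-qigl1HD385, against 0.913, 0.726 and 0.828 RPKM in NIL-qIGL1NIP. Its lines were likewise apart in all 6 libraries, with 12 reads in NIL-qigl1HD385 and 479 in NIL-qIGL1NIP. With no filter LOC_Os03g39900 was called lower, and LOC_Os03g39890 was not called.

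LOC_Os03g39920 and LOC_Os03g39930 had almost no counted reads in NIL-qigl1HD385. LOC_Os03g39920 had 0.00371, 0 and 0.00388 RPKM in NIL-qigl1HD385, against 1.58, 1.78 and 2.16 RPKM in NIL-qIGL1NIP, which for NIL-qigl1HD385 was 2 reads over a gene model of 5736 bases, against 1499 reads in NIL-qIGL1NIP. That is 0.136% of the depth-scaled reads (exact 95% interval 0.0165 to 0.493%). LOC_Os03g39930 had 0 RPKM in all 3 NIL-qigl1HD385 libraries and 2.22, 2.32 and 2.99 RPKM in NIL-qIGL1NIP. Set against a limit of 3 reads over the 3 libraries, 0.0109 RPKM, it was at least 228-fold lower in NIL-qigl1HD385, taking reads as independent. This bound would be smaller if mates were counted separately, and it leaves out counting error in NIL-qIGL1NIP. The changes on the log2 scale were -2.21 (SE 0.17) and -2.58 (SE 0.17). Both calls were kept without any 1 of the 6 libraries, and that of LOC_Os03g39920 was lost without both libraries that stood apart.

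The last locus of the block, LOC_Os03g39960, had 0.171, 0.285 and 0.373 RPKM in NIL-qigl1HD385, against 10.4, 9.15 and 8.87 RPKM in NIL-qIGL1NIP. Its NIL-qigl1HD385 mean was 2.91% of the NIL-qIGL1NIP mean, with a change of -3.69 (SE 0.15), and its call was kept in all 15 alternative fits. Residual levels in NIL-qigl1HD385 thus ranged over the 8 lower loci from 0 RPKM at LOC_Os03g39930 to 0.883 RPKM at LOC_Os03g39860 (means, n = 3).

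**Figure D2:**
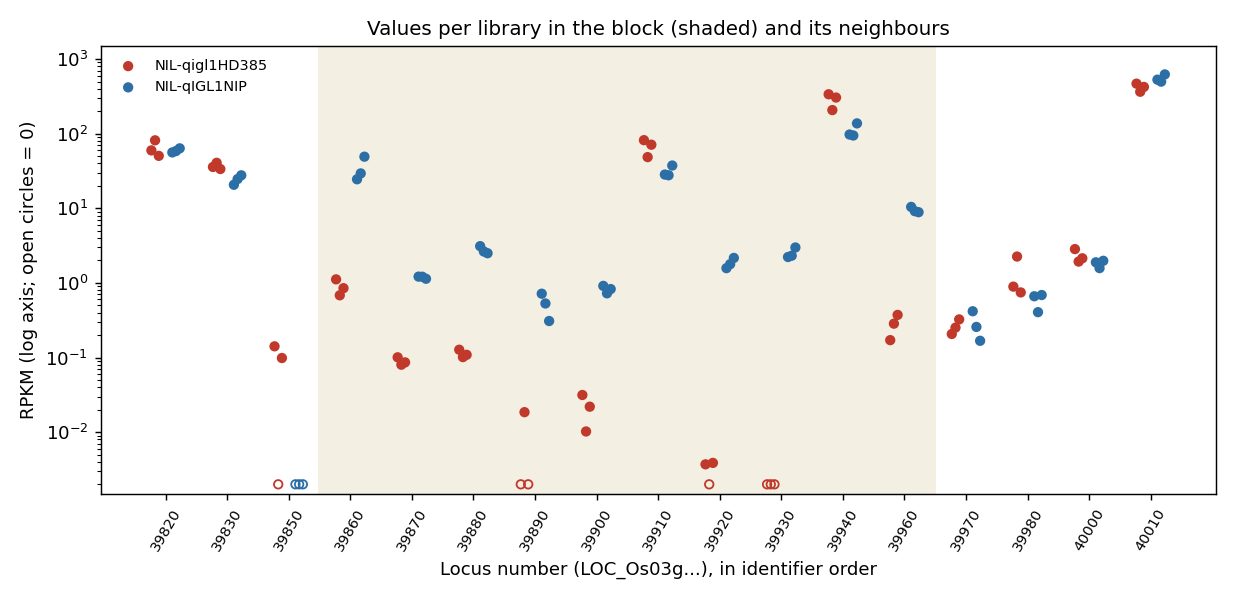
RPKM in each of the 6 libraries (log axis, open circles at the foot for 0) for the loci from LOC_Os03g39820 to LOC_Os03g40010 in identifier order, NIL-qigl1HD385 in red and NIL-qIGL1NIP in blue, with the block shaded. In 8 of the 10 shaded loci the red points lie below the blue ones, and at LOC_Os03g39910 and LOC_Os03g39940 they lie above, up to 338 RPKM.

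The 2 remaining loci of the block had higher values in NIL-qigl1HD385 and were by far the most abundant in it. LOC_Os03g39910 had 81.9, 48.5 and 71.2 RPKM in NIL-qigl1HD385, against 28.4, 27.7 and 37.4 RPKM in NIL-qIGL1NIP. LOC_Os03g39940 had 338, 207 and 305 RPKM in NIL-qigl1HD385, against 97.4, 94.6 and 137 RPKM in NIL-qIGL1NIP. At both, NIL-qigl1HD385 replicate 2 was the lowest of its line and NIL-qIGL1NIP replicate 3 the highest of its line. The changes were 1.08 (SE 0.22) and 1.35 (SE 0.23), and neither was called with all 6 libraries. Both were called higher when those 2 libraries were left out together. The mean in NIL-qigl1HD385 was 2.16 times that in NIL-qIGL1NIP at LOC_Os03g39910 and 2.58 times at LOC_Os03g39940. LOC_Os03g39940 had 4.12, 4.27 and 4.29 times the RPKM of LOC_Os03g39910 in NIL-qigl1HD385 and 3.44, 3.41 and 3.67 times in NIL-qIGL1NIP. The 2 loci thus varied together between the 3 libraries of a line, while their ratio differed between the lines without overlap. Varying together is not particular to this pair, since NIL-qigl1HD385 replicate 2 was the lowest of its line at 29 of the 49 tested loci. The sources used here do not say whether strand was used in counting, and without it reads of overlapping loci cannot be told apart.

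With the abundant loci included, the block as a whole summed to 421, 257 and 378 RPKM in NIL-qigl1HD385 and to 170.5, 170.0 and 243 RPKM in NIL-qIGL1NIP. The sum followed LOC_Os03g39910 and LOC_Os03g39940, which together made 351 ± 84.8 RPKM in NIL-qigl1HD385, against 141 ± 29.4 RPKM in NIL-qIGL1NIP (SD, n = 3).

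Before the block lay 62 loci, 28 of them tested, and 1 of these was called. LOC_Os03g39370 had 0.150, 0 and 0.157 RPKM in NIL-qigl1HD385, against 1.68, 1.54 and 1.08 RPKM in NIL-qIGL1NIP. The lines did not overlap, and the change was -1.68 (SE 0.21). It rested on 12 reads in NIL-qigl1HD385 and 177 in NIL-qIGL1NIP, and the call was lost in each of the 6 fits that leave out a library. The call was kept in only 4 of the 14 alternative fits that tested this locus. A pseudocount of 0.1 and limma voom on recovered reads were among the fits that lost it. The next tested row, LOC_Os03g39380, was less far apart, with 2.14, 1.89 and 1.85 RPKM in NIL-qigl1HD385, against 2.93, 3.14 and 2.79 RPKM in NIL-qIGL1NIP.

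LOC_Os03g39020 and LOC_Os03g39710 had differences of more than 1 in size on the log2 scale and were not called. LOC_Os03g39020 had 8.44, 2.27 and 11.5 RPKM in NIL-qigl1HD385, against 21.9, 14.4 and 33.9 RPKM in NIL-qIGL1NIP. Its values were spread widely inside each line, the lines did not overlap, and the standard error of 0.58 was large beside the change of -1.76. LOC_Os03g39710 had 2.67, 4.65 and 2.89 RPKM in NIL-qigl1HD385, against 0.934, 0.969 and 0.661 RPKM in NIL-qIGL1NIP. It was higher in every NIL-qigl1HD385 library, with replicate 2 the highest, and a change of 1.501 (SE 0.23). It was called only with a pseudocount of 0.1.

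Several neighbours in this stretch were higher in NIL-qigl1HD385 and not called with all 6 libraries. LOC_Os03g39230 had 31.0, 20.3 and 32.0 RPKM in NIL-qigl1HD385, against 12.6, 11.1 and 17.1 RPKM in NIL-qIGL1NIP, with no overlap and a change of 0.99 (SE 0.23). Among the alternatives it was called only without both libraries that stood apart. Its neighbour LOC_Os03g39224 had 9.45, 6.69 and 10.9 RPKM in NIL-qigl1HD385, against 6.26, 5.45 and 7.42 RPKM in NIL-qIGL1NIP, and here the lines overlapped. LOC_Os03g39230 had 3.08 ± 0.17 times the RPKM of LOC_Os03g39224 in NIL-qigl1HD385 and 2.12 ± 0.16 times in NIL-qIGL1NIP (SD, n = 3). The adjacent LOC_Os03g39400 and LOC_Os03g39407 were both apart between the lines. LOC_Os03g39400 had 3.64, 2.96 and 3.50 RPKM in NIL-qigl1HD385, against 1.48, 1.46 and 2.21 RPKM in NIL-qIGL1NIP. LOC_Os03g39407 had 5.33, 5.03 and 4.74 RPKM in NIL-qigl1HD385, against 3.03, 3.003 and 3.79 RPKM in NIL-qIGL1NIP. Their changes were 0.81 (SE 0.18) and 0.56 (SE 0.13).

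**Figure D3:**
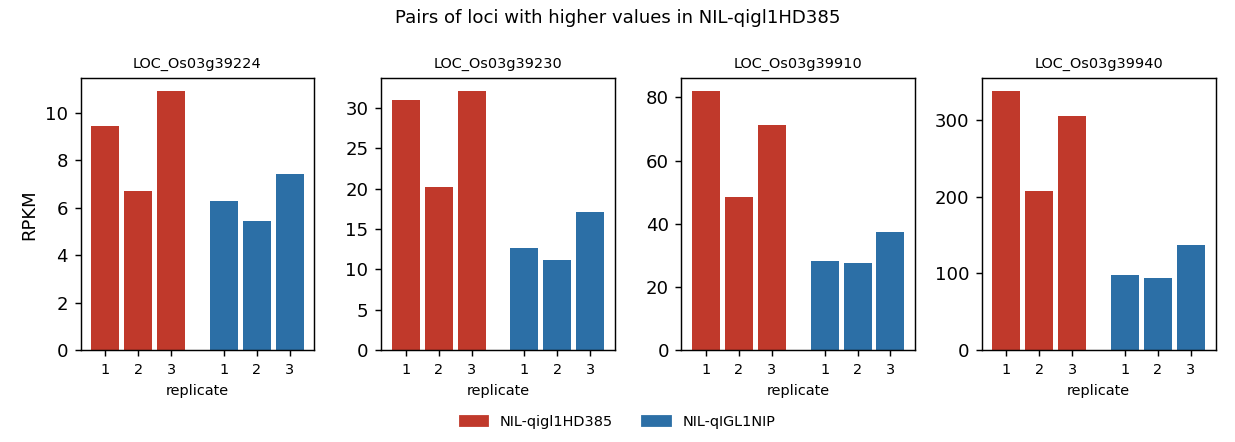
RPKM in each library (bars, axis from 0) for the neighbours LOC_Os03g39224 and LOC_Os03g39230 and for LOC_Os03g39910 and LOC_Os03g39940 of the block, with the 3 replicates of NIL-qigl1HD385 in red and of NIL-qIGL1NIP in blue. In all 4 loci NIL-qigl1HD385 replicate 2 is the lowest of its line and NIL-qIGL1NIP replicate 3 the highest of its line.

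At other tested loci before the block, smaller differences without overlap lay in both directions. LOC_Os03g39640 averaged 41.7 ± 1.37 RPKM in NIL-qigl1HD385, against 29.8 ± 4.18 RPKM in NIL-qIGL1NIP (SD, n = 3), a change of 0.49. LOC_Os03g39830, the last tested locus before the block, averaged 36.7 ± 3.64 RPKM in NIL-qigl1HD385, against 24.3 ± 3.52 RPKM in NIL-qIGL1NIP (SD, n = 3), a change of 0.59. LOC_Os03g39160 had 5.20 RPKM in NIL-qigl1HD385 against 4.27 RPKM in NIL-qIGL1NIP on average, and LOC_Os03g39650 had 0.849 RPKM in NIL-qigl1HD385 against 0.390 RPKM in NIL-qIGL1NIP. In the lower direction, LOC_Os03g39655 averaged 7.50 ± 0.348 RPKM in NIL-qigl1HD385, against 11.2 ± 1.10 RPKM in NIL-qIGL1NIP (SD, n = 3), a change of -0.54, and LOC_Os03g38990 27.7 ± 2.23 RPKM in NIL-qigl1HD385, against 30.8 ± 0.492 RPKM in NIL-qIGL1NIP (SD, n = 3), a change of -0.15. None of these was called. In the remaining tested loci of this stretch, 15 in all with LOC_Os03g39224, the lines overlapped, and the changes lay between -0.75 and 0.45. They included 3 of the first 4 loci of the segment and LOC_Os03g39129. LOC_Os03g38980 averaged 45.7 ± 5.09 RPKM in NIL-qigl1HD385, against 59.4 ± 16.6 RPKM in NIL-qIGL1NIP, LOC_Os03g39000 38.2 ± 6.83 RPKM in NIL-qigl1HD385, against 44.3 ± 2.14 RPKM in NIL-qIGL1NIP and LOC_Os03g39129 53.0 ± 6.19 RPKM in NIL-qigl1HD385, against 59.99 ± 14.03 RPKM in NIL-qIGL1NIP (SD, n = 3 each).

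After the block lay 22 loci, 13 of them tested, and 2 neighbouring ones were called higher. LOC_Os03g40194 had 2.30, 2.24 and 2.61 RPKM in NIL-qigl1HD385, against 0.330, 0.542 and 0.410 RPKM in NIL-qIGL1NIP. LOC_Os03g40210, the next row, had 3.57, 3.82 and 4.32 RPKM in NIL-qigl1HD385, against 0.777, 1.17 and 0.936 RPKM in NIL-qIGL1NIP. In both, every NIL-qigl1HD385 library was more than 2 RPKM and every NIL-qIGL1NIP library under 2 RPKM. The changes were 1.64 (SE 0.16) and 1.597 (SE 0.16), and the means in NIL-qigl1HD385 were 5.58 and 4.07 times those in NIL-qIGL1NIP. LOC_Os03g40194 lost its call without NIL-qigl1HD385 replicate 1 and without replicate 3, and LOC_Os03g40210 lost it without NIL-qigl1HD385 replicate 3.

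**Figure D4:**
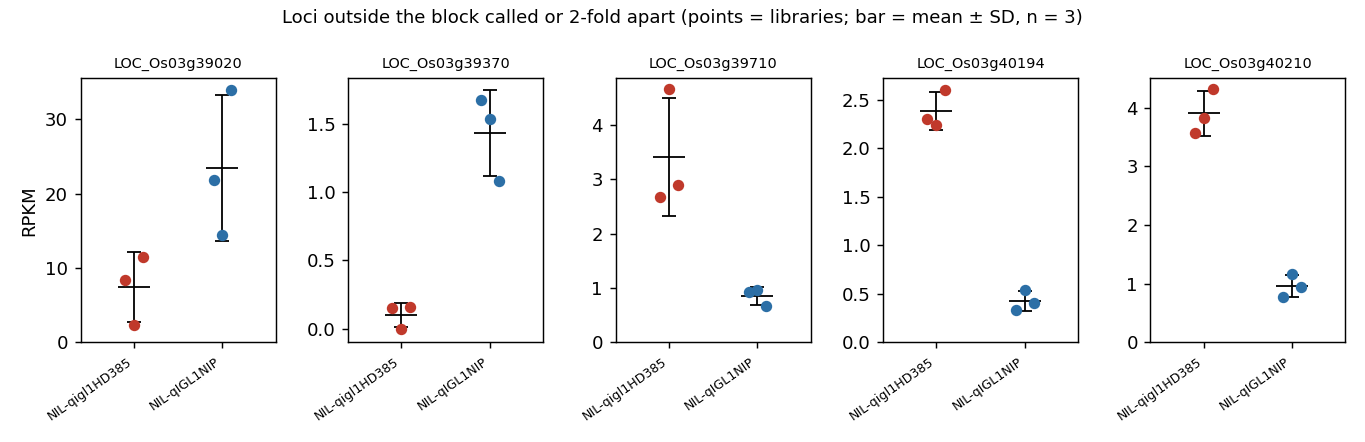
RPKM per library (points; axis starts at 0 except for LOC_Os03g39370, where it starts just below 0) with the mean and SD (n = 3) for the 5 loci outside the block that were called or had a difference of at least 1 in size on the log2 scale. NIL-qigl1HD385, in red on the left, is lower at LOC_Os03g39020 and LOC_Os03g39370 and higher at LOC_Os03g39710, LOC_Os03g40194 and LOC_Os03g40210, with no overlap in any of them.

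Differences without overlap and without a call were seen at 8 further tested loci of this stretch. LOC_Os03g40070 had 4.16, 2.81 and 2.61 RPKM in NIL-qigl1HD385, against 6.91, 5.56 and 5.96 RPKM in NIL-qIGL1NIP, and LOC_Os03g40100 had 5.90, 3.55 and 4.94 RPKM in NIL-qigl1HD385, against 8.20, 9.36 and 7.84 RPKM in NIL-qIGL1NIP. Both were lower in every NIL-qigl1HD385 library, with changes of -0.87 (SE 0.19) and -0.78 (SE 0.19). LOC_Os03g40180 was also lower, at 15.5 ± 1.79 RPKM in NIL-qigl1HD385, against 18.4 ± 2.23 RPKM in NIL-qIGL1NIP on average (SD, n = 3), a change of -0.25 (SE 0.13). LOC_Os03g40260 was higher, with 14.7, 12.7 and 14.7 RPKM in NIL-qigl1HD385, against 9.66, 8.33 and 7.06 RPKM in NIL-qIGL1NIP, a change of 0.72 (SE 0.14), and it was called only under quantile normalization. LOC_Os03g40020 averaged 13.0 ± 0.858 RPKM in NIL-qigl1HD385, against 9.94 ± 0.497 RPKM in NIL-qIGL1NIP, and LOC_Os03g40170 4.44 ± 1.88 RPKM in NIL-qigl1HD385, against 2.79 ± 0.0959 RPKM in NIL-qIGL1NIP (SD, n = 3 each). LOC_Os03g39980, the first tested locus after the block, averaged 1.30 ± 0.834 RPKM in NIL-qigl1HD385, against 0.586 ± 0.156 RPKM in NIL-qIGL1NIP (SD, n = 3), with NIL-qigl1HD385 replicate 2 at 2.26 RPKM. LOC_Os03g40000 overlapped between the lines, at 2.30 ± 0.476 RPKM in NIL-qigl1HD385, against 1.82 ± 0.210 RPKM in NIL-qIGL1NIP on average (SD, n = 3).

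The last of the 8, LOC_Os03g40010, was the most abundant locus of the segment. It had 469, 365 and 423 RPKM in NIL-qigl1HD385, against 529.7, 499 and 623 RPKM in NIL-qIGL1NIP. The lines did not overlap, yet the change was only -0.39 (SE 0.15) and was not called. The other members with the highest means, besides LOC_Os03g39940, were LOC_Os03g40270, LOC_Os03g40110 and LOC_Os03g39820. LOC_Os03g40270, the last locus of the segment, averaged 96.0 ± 24.3 RPKM in NIL-qigl1HD385, against 97.7 ± 17.1 RPKM in NIL-qIGL1NIP. LOC_Os03g40110 averaged 63.4 ± 6.11 RPKM in NIL-qigl1HD385, against 69.2 ± 10.8 RPKM in NIL-qIGL1NIP, and LOC_Os03g39820 63.9 ± 15.9 RPKM in NIL-qigl1HD385, against 59.4 ± 3.83 RPKM in NIL-qIGL1NIP (SD, n = 3 each). In these 3 loci the values of the lines overlapped, and the changes lay between -0.12 and 0.08.

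Among all 49 tested loci, 31 had values without overlap, 15 lower and 16 higher in NIL-qigl1HD385, against 26.5% of all tested loci. The median change was -0.10, against 0.02 over all tested loci. The 40 uncalled loci had a median change of -0.05 and a median size of change of 0.42, where all 23011 uncalled loci had 0.02 and 0.19. A change of at least 1 in size was found at 13 of the 49 and at 3.55% of all tested loci. All of these values come from the contrast that chose the segment.

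The other 45 loci lay under the filter, with no value above 0.913 RPKM, and 8 of them were at 0 in all 6 libraries. Of the 37 with some reads, 5 were lower and 3 higher in NIL-qigl1HD385 without overlap, where 4.29% and 4.28% of such loci in the whole table were. Besides LOC_Os03g39890 and LOC_Os03g39900 of the block, the lower ones were LOC_Os03g39110, LOC_Os03g40040 and LOC_Os03g40130. LOC_Os03g39110 had 0.109, 0.0529 and 0.0142 RPKM in NIL-qigl1HD385, against 0.353, 0.446 and 0.382 RPKM in NIL-qIGL1NIP. LOC_Os03g40040 averaged 0.0574 RPKM in NIL-qigl1HD385, against 0.189 RPKM in NIL-qIGL1NIP, and LOC_Os03g40130 0.260 RPKM in NIL-qigl1HD385, against 0.527 RPKM in NIL-qIGL1NIP. The higher ones were LOC_Os03g39170, LOC_Os03g39350 and LOC_Os03g39460. LOC_Os03g39170 had 0.308, 0.524 and 0.370 RPKM in NIL-qigl1HD385, against 0.0690, 0.0459 and 0.116 RPKM in NIL-qIGL1NIP. LOC_Os03g39460 had 0.410, 0.285 and 0.857 RPKM in NIL-qigl1HD385, against 0, 0.233 and 0.127 RPKM in NIL-qIGL1NIP, from 26 reads in NIL-qigl1HD385 against 6 in NIL-qIGL1NIP, and LOC_Os03g39350 stayed under 0.08 RPKM in every library. In the other 29 loci with some reads the lines overlapped, and 18 of these had 10 recovered reads or fewer over all 6 libraries. Recovered reads are the fewest that fitted, so this count of 18 may be too high.

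Over all 94 loci, the summed RPKM was 1591, 1243 and 1475 in NIL-qigl1HD385 and 1364, 1310.5 and 1581 in NIL-qIGL1NIP. The lines overlapped, at 1437 ± 177 RPKM in NIL-qigl1HD385, against 1418 ± 143 RPKM in NIL-qIGL1NIP (SD, n = 3). The 85 loci that were not called made up nearly all of it, with 1429 ± 177 RPKM in NIL-qigl1HD385, against 1363 ± 131 RPKM in NIL-qIGL1NIP. The 7 called lower loci held 1.47 ± 0.28 RPKM in NIL-qigl1HD385, against 53.6 ± 12.6 RPKM in NIL-qIGL1NIP, and the 2 called higher loci 6.29 ± 0.56 RPKM in NIL-qigl1HD385, against 1.39 ± 0.30 RPKM in NIL-qIGL1NIP.

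The spread inside each line enters the calls, so it is not independent of how the segment was chosen. The median standard deviation among the 3 libraries was 0.19 in NIL-qigl1HD385 and 0.21 in NIL-qIGL1NIP on the log2(RPKM + 0.5) scale over the 49 tested loci, against 0.17 in NIL-qigl1HD385 and 0.19 in NIL-qIGL1NIP over all tested loci. NIL-qigl1HD385 replicate 2 was the lowest of its line at 29 of the 49 loci. NIL-qIGL1NIP replicate 3 was the highest of its line at 23 and the lowest at 20. LOC_Os03g39270 had 3.13, 1.27 and 1.59 RPKM in NIL-qigl1HD385, against 1.61, 1.65 and 10.8 RPKM in NIL-qIGL1NIP, so that NIL-qIGL1NIP replicate 3 alone stood far above the other 5 libraries. LOC_Os03g39020 was likewise highest in NIL-qIGL1NIP replicate 3 and lowest in NIL-qigl1HD385 replicate 2.

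**Figure D5:**
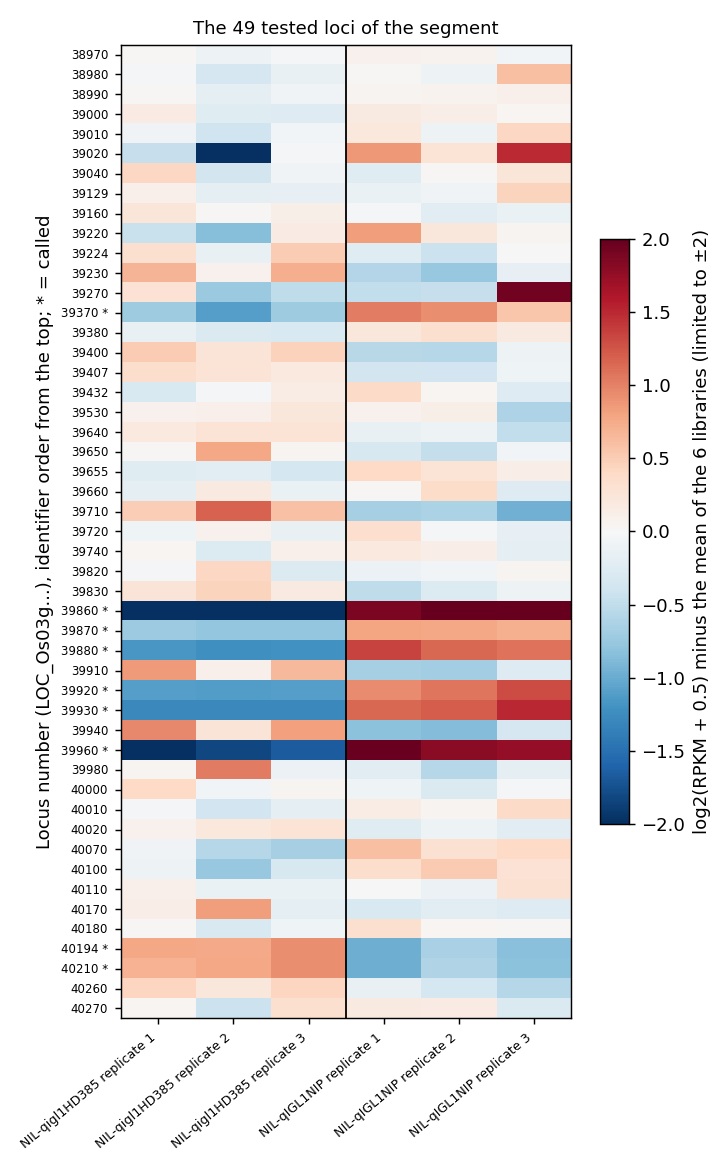
Each row is 1 of the 49 tested loci in identifier order from the top, each column a library, and the colour is log2(RPKM + 0.5) minus the mean of the 6 libraries, limited to 2 in size, with asterisks at called loci. The rows LOC_Os03g39860 to LOC_Os03g39960 are blue in NIL-qigl1HD385 and red in NIL-qIGL1NIP except LOC_Os03g39910 and LOC_Os03g39940, and LOC_Os03g40194 and LOC_Os03g40210 show the opposite colours.

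At the near edge, LOC_Os03g38970, the first locus inside, averaged 37.6 ± 1.73 RPKM in NIL-qigl1HD385, against 39.4 ± 2.10 RPKM in NIL-qIGL1NIP, and LOC_Os03g38960, just outside, 77.7 ± 4.58 RPKM in NIL-qigl1HD385, against 72.9 ± 4.89 RPKM in NIL-qIGL1NIP (SD, n = 3 each). At the far end, LOC_Os03g40310 was the nearest tested locus outside, with 5.92 ± 0.47 RPKM in NIL-qigl1HD385, against 7.92 ± 0.96 RPKM in NIL-qIGL1NIP (SD, n = 3). None of these was called. Of the 50 tested loci before the segment, 2 were called, and of the 50 after it, 3. Before the segment, 0 were called without each NIL-qigl1HD385 library, with the replicate block and without both libraries that stood apart. Both calls there were thus lost in these fits. At an unadjusted p under 0.05 (limma), 6 to 10 of the 50 passed in them. Of all 23181 tested loci, 2836 to 3686 passed in the same fits, so passing was common in the whole table. Whether these shares differ was not tested.

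Of the 3 called loci on the far side, 2 lay close to the edge. LOC_Os03g40380, the second tested locus beyond the segment, had 2.00, 1.47 and 1.58 RPKM in NIL-qigl1HD385 and 0 RPKM in all 3 NIL-qIGL1NIP libraries. LOC_Os03g40390, the next, had 12.3, 8.92 and 7.49 RPKM in NIL-qigl1HD385 and 37.3, 37.3 and 77.8 RPKM in NIL-qIGL1NIP. LOC_Os03g41200, farther on, had 0.0304, 0.104 and 0.0159 RPKM in NIL-qigl1HD385 and 61.6, 57.8 and 62.4 RPKM in NIL-qIGL1NIP, a log2 change of -6.80, larger than any inside the segment. On the near side, LOC_Os03g38740, 7 tested loci from the edge, had 29.8 ± 1.93 RPKM in NIL-qigl1HD385, against 14.8 ± 2.08 RPKM in NIL-qIGL1NIP. LOC_Os03g38170, 26 tested loci away, had 0.561 ± 0.163 RPKM in NIL-qigl1HD385, against 6.64 ± 2.90 RPKM in NIL-qIGL1NIP (SD, n = 3 each). The median change was 0.01 in the 50 loci before the segment and -0.06 in the 50 after it.

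Calls in the segment were 7 lower and 2 higher in NIL-qigl1HD385. Without NIL-qigl1HD385 replicate 3 and with the replicate block, 0 higher calls were left. At an unadjusted p under 0.05 (limma), 14 and 13 loci were higher in these fits. In both directions together, 27 of the 49 tested loci passed in each, against 3208 and 3150 of all 23181 tested loci. The segment was picked from this contrast, so these counts do not stand in for the lost calls. In the stretch LOC_Os05g46480 to LOC_Os05g47850, also chosen for its calls, 6 of 50 tested loci were called, all 6 lower in NIL-qigl1HD385, and in LOC_Os11g45430 to LOC_Os11g47730, 25 of 50, all 25 higher. The difference between these stretches was not tested.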

How the data were processed

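RNA of young panicles from 3 libraries of NIL-qigl1HD385 and 3 of NIL-qIGL1NIP was sequenced as stranded mRNA libraries, per the labels' protocols. The authors deposited 1 RPKM value per locus and library (46732 rows). The submitters' processing notes name edgeR 3.12.1, Subread 1.5.1, Trimmomatic 0.36 and featureCounts without saying what each did. The sources used here do not say which tool aligned the reads, and give no genome build or strand setting. The RPKM values, as deposited, were put on the log2(RPKM + 0.5) scale and tested in R 4.3.3 with limma 3.58.1 (two-sided, variance trend, no covariate) over the 23181 loci with a mean of at least 0.5 RPKM. On simulated data of 23181 loci for this comparison, the test recovered 89% of 2-fold and 100% of 4-fold changes and called 17 unchanged loci. The simulation gave every locus the same dispersion and no library that stood apart. The shares recovered may therefore be too high for these data. Whole reads, totals and lengths were recovered from the RPKM values with Python 3.11.15: 100% of the values above 0 were whole within 0.003 reads plus 2e-08 of the value, with lengths of 60 to 17000 bases, taking the smallest that fitted. Recovered reads were even in 63.6% of values at loci with a mean of 10 to 100 reads, so mates may be counted separately and intervals may be too narrow. Limits for 0 are 3 reads. The labels do not pair libraries.

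Members, ranges and lists were chosen with earlier results of these data known. Named loci are those called, those with a difference of at least 1 in size (log2) without a call, the 5 with the highest means, those under the filter without overlap and with at least 0.1 RPKM in the higher line, and the edge loci. Loci without overlap and not in that rule, and LOC_Os03g38980, LOC_Os03g39000, LOC_Os03g39129, LOC_Os03g39224, LOC_Os03g39270 and LOC_Os03g40000, were named after their values were seen. Position was read from the identifiers.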

Additional observations from a re-analysis of the deposited data

How the results depend on the processing

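The 9 called loci, with 7 lower and 2 higher in NIL-qigl1HD385, the 13 loci with a 2-fold change and the 170 called loci of the whole table stayed within 1.5 times under both pseudocounts (0.1 and 1), no filter, median-ratio scaling, quantile normalization and limma voom on recovered reads. All 9 calls were kept with a pseudocount of 1, no filter and both scalings. With voom and with a pseudocount of 0.1, 8 were kept, and LOC_Os03g39370 was lost in each. A mean of at least 2 RPKM, which tests 35 of the loci, gave 3 calls, 2 lower and 1 higher, 7 loci with a 2-fold change, 94 calls in the whole table and 1 call in the 50 loci after the segment. With the replicate block, 2 loci were called, LOC_Os03g39860 and LOC_Os03g39960, 2 lower and 0 higher (limma; 13 higher at an unadjusted p under 0.05), with 46 calls in the whole table, 0 before the segment (8 unadjusted) and 1 after it. The numbers pair nothing in the labels, same-numbered deviations correlated at -0.28, -0.25 and -0.41 across loci, and a library's best correlation was with its own number in 0 of 6 cases. Leaving out 1 library gave 5 to 8 called loci (5 to 6 lower, 0 to 2 higher), 84 to 112 in the whole table, 0 to 1 before and 2 to 3 after the segment. The 0 higher calls arose without NIL-qigl1HD385 replicate 3 (limma; 14 at an unadjusted p under 0.05), and the 0 before the segment without each NIL-qigl1HD385 library (6 to 10 unadjusted). Voom left 1 call before the segment. Without NIL-qigl1HD385 replicate 2 and NIL-qIGL1NIP replicate 3 together, an alternative chosen after the data had been seen, 7 loci were called, 4 of them among the 9, with 4 lower, 3 higher, 93 in the whole table, 0 before the segment (9 unadjusted) and 1 after it. In the fits given here with unadjusted counts, 2836 to 3686 of all 23181 tested loci were under 0.05 unadjusted (limma). The unadjusted counts therefore do not stand in for lost calls. Among the named uncalled loci whose change was recomputed, the sign of 3 near 0 changed. LOC_Os03g39820 was at -0.11 to 0.23 with 1 library left out and at -0.06 without both of those libraries, LOC_Os03g40110 at -0.21 to 0.0027 and at 0.0431, and LOC_Os03g40270 at -0.21 to 0.16 and at 0.0082, with 0.0195 under quantile normalization. The summed RPKM of all 94 loci differed by 18.2 RPKM between the lines, by -22.3 after median-ratio scaling and by -59.1 to 115 with 1 library left out, all within the spread between libraries. The causes were not tested. At 0 reads a level is bounded only by 3 reads.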

Other observations

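The 5 tested loci outside the segment whose profile over the 6 libraries was most like the mean profile of the 7 called lower loci were LOC_Os07g01290, LOC_Os05g46890, LOC_Os05g46954, LOC_Os03g32330 and LOC_Os05g46920. Likeness was measured as a Pearson correlation on the log2(RPKM + 0.5) scale, and is given as a description, since the 6 libraries fall into 2 lines and the measure mostly finds loci that are high in one line and low in the other. All 5 were called lower in NIL-qigl1HD385. LOC_Os03g32330, on the same chromosome, had 0 RPKM in the 3 NIL-qigl1HD385 libraries against 11.5 ± 1.30 RPKM in NIL-qIGL1NIP (SD, n = 3). LOC_Os07g01290 had 0.129 ± 0.063 RPKM in NIL-qigl1HD385, against 124 ± 23.0 RPKM in NIL-qIGL1NIP. Of the 3 on chromosome 5, LOC_Os05g46890 averaged 0.0260 RPKM in NIL-qigl1HD385, against 14.8 RPKM in NIL-qIGL1NIP. LOC_Os05g46954 averaged 0 RPKM in NIL-qigl1HD385, against 11.5 RPKM in NIL-qIGL1NIP, and LOC_Os05g46920 0.00338 RPKM in NIL-qigl1HD385, against 1.42 RPKM in NIL-qIGL1NIP.

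The ratio between the neighbouring higher loci LOC_Os03g40210 and LOC_Os03g40194 was 1.64 ± 0.08 in NIL-qigl1HD385 and 2.26 ± 0.10 in NIL-qIGL1NIP (SD, n = 3), with no overlap between the lines. In NIL-qIGL1NIP it rested on few reads, 17, 23 and 17 at LOC_Os03g40210 and 67, 99 and 69 at LOC_Os03g40194. Both loci were picked from this contrast, so the ratio is a description.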
